A study of Glycine max with 4 samples.

Results

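A set of 6528 array probes gave almost no signal with DNA of “M92-220”, the wild-type soybean line that was treated with fast neutrons to make a mutant population. They were chosen by the Cy5 signal of “M92-220”, with a probe entering the set when its mean processed signal was below 50 on all 4 arrays. They made up 0.686% of the 951615 probes. The arrays were array comparative genomic hybridizations (aCGH) of leaf DNA from single mutant plants, labeled with Cy3, against “M92-220”, labeled with Cy5 and named M92-220-Long in the labels. Plants 15 and 39 carried the line name CM7F040P05, here P05, and plants 35 and 45 the name CM7F040P06, here P06. All of them descend from seed treated with fast neutrons. Each array held 1 plant, no array had the dyes swapped, and each line was represented by 2 single plants.

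In aCGH a short probe glows in proportion to how much matching DNA is in each labeled sample. The probes, 45 to 60 bp long, were designed from the Glyma.Wm82.a2.v1 assembly of Williams 82, the cultivar whose genome serves as the soybean reference. A probe can be dim with DNA of another cultivar when its sequence is missing there, when the sequences differ enough to weaken the pairing, or when the probe hybridizes poorly with any DNA. Soybean cultivars are known to differ in this way, often at clusters of related genes such as disease resistance genes. Fast neutrons are known mainly for deleting DNA. Probe names and positions below are those of the array files, on Glyma.Wm82.a2.v1, and probes were not assigned to genes.

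The dim probes stood at the level of the arrays' blank spots. Their median Cy5 signal was 7.03 on the array of plant 15, 9.02 on that of plant 39, 7.39 on that of plant 35 and 7.51 on that of plant 45. On the same arrays the median of the negative control spots, which match no soybean sequence, was 6.53, 7.39, 6.25 and 6.54. All other probes had a median between 1048 and 1060. On each array between 80.7% and 89.6% of the dim probes were below the 99th percentile of the negative controls. The scanner software marked 5583 of them (85.5%) as not well above background in Cy5 on any array, out of 5584 such probes in the whole design. The median SD of a dim probe's Cy5 signal over the 4 arrays was 2.89 signal units, at levels that the rule held below 50.

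The set had a clear lower core and a thin upper edge. The highest Cy5 signal over the 4 arrays was below 10 for 2332 probes and between 10 and 20 for another 2237, so 69.99% of the set stayed below 20. Only 501 lay between 40 and 50. Above the threshold the counts climbed again, from 489 probes between 50 and 60 to 899 between 90 and 100, on the lower flank of the main distribution. Just inside the threshold were Gm_CUST_P10695379 with a highest Cy5 signal of 49.9, Gm_CUST_P11962377 with 49.9 and Gm_CUST_P10765371 with 49.8. Just outside were Gm_CUST_P11485043 with 50.016, Gm_CUST_P11009673 with 50.0165 and Gm_CUST_P12848772 with 50.06. The threshold thus ran through a sparse but continuous range of signals.

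**Figure D1:**
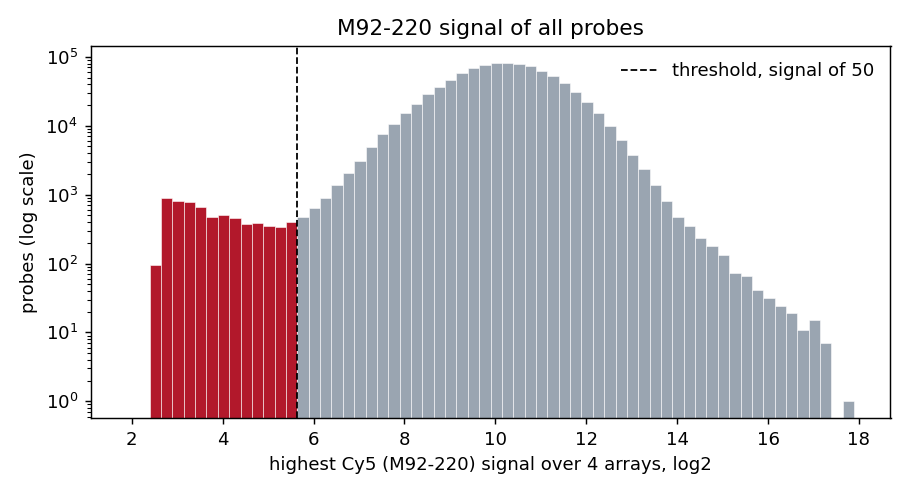
Histogram of the highest Cy5 (“M92-220”) signal over the 4 arrays for all 951615 probes, on a log2 axis, with the number of probes on a log axis. The 6528 dim probes, in red left of the dashed threshold at 50, form a separate low peak. It thins toward the threshold and runs without a gap into the main distribution, and 4569 of the dim probes lie below a signal of 20.

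By the rule, any single array must hold at least as many probes below 50 as all 4 together. The number of probes below 50 in Cy5 was 7310 on the array of plant 15, 10944 on that of plant 39, 7745 on that of plant 35 and 7616 on that of plant 45. The array of plant 39 stood apart, and 3875 probes were below 50 there and nowhere else. Asking for the other 3 arrays alone gave 6727 probes. Exactly 3 arrays were below 50 in Cy5 for 526 probes, exactly 2 for 632 and exactly 1 for 4661. In Cy3 the counts below 50 were 7334, 10286, 7925 and 7836 for plants 15, 39, 35 and 45, so plant 39 was highest again. The dim probes were spread evenly over the slide, at 0.666% to 0.714% of the probes in each of 4 equal sections. Among the 913 probes printed as 11 spots, 8 (0.876%) were in the set, and the SD of their Cy5 signal over the spots of an array ran from 0.815 to 22.9 with a median of 4.87. The highest single spot of these 8 reached 83.9, so the mean over 11 spots was low while a spot could still be above the threshold.

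Nearly all probes dim in “M92-220” were dim in the mutants too. Of the 6528, 5952 (91.2%) were below 50 in Cy3 in all 4 plants, where 0.641% of all probes were. Among the 945087 other probes only 145 (0.0153%) were dim in all 4 plants. Read from the mutant side, 97.6% of the 6097 probes dim in all 4 plants were in the set chosen from “M92-220”. Both dyes were read from the same spots and share the probe sequence, so this overlap is a description and was not tested.

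In Cy3 the dim probes had median signals of 11.5, 12.9, 10.4 and 9.88 in plants 15, 39, 35 and 45. The negative controls had Cy3 medians of 10.6, 10.8, 9.06 and 8.59 on these arrays. The lowest mean Cy3 signals belonged to Gm_CUST_P11591956 on chromosome 10, Gm_CUST_P10671315 on chromosome 4 and Gm_CUST_P11932086 on chromosome 12. Gm_CUST_P11591956 read 9.15, 8.57, 7.80 and 7.28 in Cy3 in plants 15, 39, 35 and 45, and 5.63, 5.98, 8.83 and 9.98 in Cy5. Every one of these readings is a background reading, in the mutants and in “M92-220” alike.

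Ratios at these probes leaned upward. The median log2 ratio of mutant over “M92-220” was 0.70 for plant 15 and 0.53 for plant 39, the P05 plants, and 0.52 for plant 35 and 0.39 for plant 45. The negative control spots also had a higher median in Cy3 than in Cy5 on every array, and the part of this offset in the ratios was not tested. In the authors' table of processed ratios, 2386 of the dim probes (36.6%) had a value on all 4 arrays, against 99.03% of the other probes. Both shares count probes with no row in that table as lacking a value. A row was there for 6510 of the dim probes, and 1095 of the other probes with a row lacked a value on an array.

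Some dim probes carried signal in a mutant plant. At least 1 plant was at or above 50 in Cy3 for 576 probes, and 528 of these stayed below 100 in every plant. Of the 576, 287 were at or above 50 in exactly 1 plant, 147 in 2, 70 in 3 and 72 in all 4. A Cy3 signal of 200 or more in at least 1 plant was reached by 36 probes. The grouping at 200 was chosen after the values were seen. For the 5952 that were below 50 in both samples on every array, a missing sequence and a probe that hybridizes poorly cannot be told apart.

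The 36 probes fell into a few patterns. In all 4 plants 11 were bright, and every one of these lay on chromosome 18. In plant 39 alone 21 were bright, and in plant 15 alone 2. Of the remaining pair, 1 was bright in every plant but 39 and 1 in every plant but 35, where it read 176. No probe was bright in plant 35 alone or plant 45 alone.

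**Figure D2:**
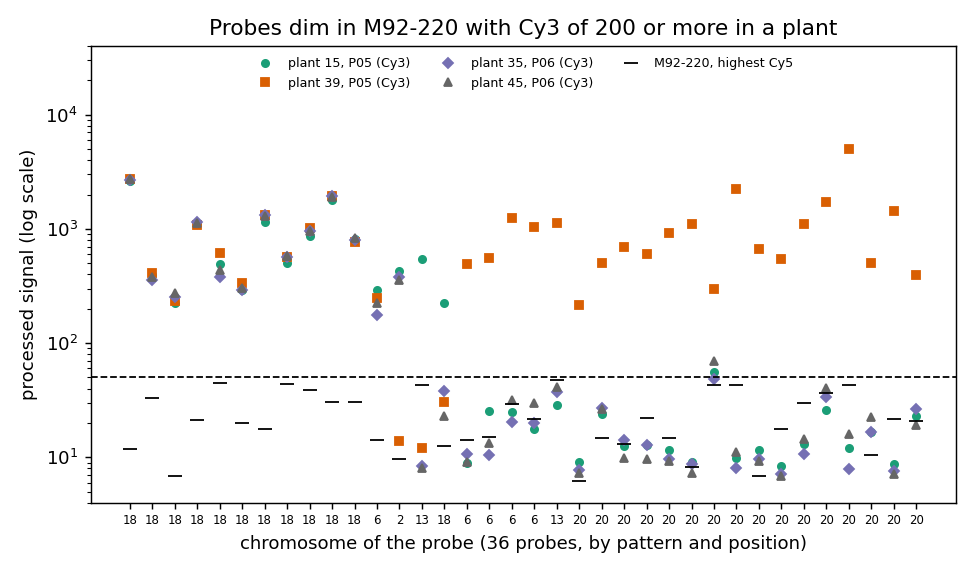
Processed Cy3 signal (log axis) in plants 15 and 39 of P05 and plants 35 and 45 of P06 for the 36 dim probes with Cy3 of 200 or more in at least 1 plant, with a dash for the highest Cy5 signal of “M92-220” and a dashed line at 50. The 11 probes at the left, all on chromosome 18, have the 4 plants together between 225 and 2734, while 21 probes at the right are bright in plant 39 (orange) alone.

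The 11 chromosome 18 probes gave Cy3 signals between 225 and 2734 in the plants, where “M92-220” gave Cy5 signals between 5.38 and 44.9. They lay at 4 places between 11242368 and 14198757. Within each probe the plants were close, with a coefficient of variation between 1.98% and 20.5%. That the plants were above “M92-220” follows from how these 11 were picked. The 5 with the highest signal in their dimmest plant are described next.

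Gm_CUST_P12861486 (chr18:11242368-11242427) read 2616, 2725, 2686 and 2734 in Cy3 in plants 15, 39, 35 and 45, and 9.70, 11.9, 7.01 and 7.39 in Cy5. Its mean Cy3 signal was 2690 ± 53.4 (SD, n = 4 plants), more than the median probe, while its Cy5 signal was not well above background on any array. As a geometric mean over the 4 arrays, the mutant signal was at least 103-fold higher, taking Cy5 at the lowest signal well above background on each. That bound compares 2 dyes that were never swapped and is open to dye bias. Gm_CUST_P12867606 (chr18:12921770-12921829) read 1138, 1330, 1324 and 1285 in Cy3 and 5.38, 17.7, 11.7 and 5.57 in Cy5, at least 48.5-fold higher by the same mean. Gm_CUST_P12863553 (chr18:11738949-11739008) read 1128, 1088, 1153 and 1137 in Cy3 and 12.8, 6.78, 21.4 and 5.75 in Cy5, at least 43.1-fold higher by the same mean. The 4 plants read close to each other in all 3.

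Gm_CUST_P12871050 (chr18:14198397-14198447) read 1805, 1931, 1953 and 1898 in Cy3 against 10.1, 9.40, 30.6 and 16.9 in Cy5, which was well above background on 1 array. Gm_CUST_P12867684 (chr18:12940283-12940342) read 863, 1022, 951 and 949 in Cy3 against 30.1, 33.3, 24.1 and 38.9 in Cy5, also well above background on 1 array. The bright probes were not a block. The interval from the first to the last held 2642 probes, of which 32 were in the set, and 18 of these were dim in all 4 plants as well. Among the 2610 other probes of the interval the median log2 ratio was between 0.03 and 0.05 in each plant, with 22 to 27 probes at 1 or more and 25 or 26 at -1 or less.

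Under a wider definition, a Cy3 signal of 50 or more with a log2 ratio of 1 or more in all 4 plants, 25 dim probes were brighter in the mutants, where 0.0062% of all probes met it. Low Cy5 was what chose these probes, so a high ratio was favored and was not tested. Chromosome 18 held 13 of the 25, the 11 above among them. Most of the rest were faint. In 13 of the 25 the Cy3 signal stayed between 53.0 and 122, on 9 chromosomes. The exception was Gm_CUST_P10894935 (chr6:12014431-12014490), with 292, 246, 176 and 224 in Cy3 and 14.1, 10.4, 7.30 and 7.52 in Cy5.

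Plant 39 differed from plant 15 of its own line and from both P06 plants at 20 dim probes, where it read 200 or more and the other 3 plants stayed below 50. The 21st probe bright in plant 39 alone, Gm_CUST_P13260192 on chromosome 20, read 55.8, 295, 48.1 and 69.5 in plants 15, 39, 35 and 45. Of these, 15 lay on chromosome 20 between 37398893 and 37893406, 4 on chromosome 6 between 51066922 and 51305571, and 1 on chromosome 13. On chromosome 20 the plant 39 signal ran from 215 to 4981 with a median of 689, and the other plants ran from 6.81 to 40.2. On chromosome 6 it ran from 497 to 1237 with a median of 801, and the others from 8.84 to 32.0. That the plants do not overlap at the 20 follows from how they were picked, and the values are those of 1 plant and were not tested.

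The brightest of them was Gm_CUST_P13261465 (chr20:37887341-37887394), with Cy3 signals of 12.03, 4981, 7.95 and 16.02 in plants 15, 39, 35 and 45. Its Cy5 signals were 12.7, 43.2, 13.97 and 23.9. In the other 3 plants it was not well above background. The plant 39 signal was at least 133-fold higher than the geometric mean of theirs. Gm_CUST_P13260379 (chr20:37683904-37683963) read 9.81, 2246, 8.14 and 11.1 in Cy3, at least 59.9-fold higher in plant 39 by the same measure. Gm_CUST_P13261133 (chr20:37836710-37836769) read 25.9, 1727, 33.8 and 40.2 in Cy3 and was above background in 1 of the other plants. Both of the brightest had their highest Cy5 signal, 43.2, on the array of plant 39. Over the 20 probes the highest Cy5 signal was on that array for 12, and 17 had no Cy5 signal well above background on any array. The median Cy5 signal of all dim probes was also highest on that array, 9.02 against 7.03 to 7.51. The count of highest Cy5 signals by array was not made over all dim probes.

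Most other probes around the plant 39 probes had ratios between -1 and 1, but more of them lay beyond in plant 39 than in any other plant. The chromosome 20 interval held 797 probes and 23 dim probes, and 5 of the 23 were dim in all 4 plants. Of its 774 other probes, 43 had a log2 ratio of 1 or more in plant 39 and 12 a ratio of -1 or less, against at most 2 in either direction in any other plant. The median ratio of the others was 0.06 in plant 39 and 0.01 to 0.03 in the other plants. The chromosome 6 interval held 429 probes, and 9 of its 424 others had a ratio of 1 or more in plant 39 and none in the other plants. One of the probes just outside the threshold, Gm_CUST_P11009673 (chr6:51253991-51254050), lay inside this interval and read 10.97, 784, 27.9 and 31.1 in Cy3. Of the 35 other probes directly beside the 20, 11 had a ratio of 1 or more in plant 39 and none a ratio of -1 or less, with a median of 0.37.

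The reverse pattern occurred at an adjacent pair on chromosome 2, which was named after its values were seen. Gm_CUST_P10305473 (chr2:39725781-39725840) read 425, 13.9, 377 and 357 in Cy3 in plants 15, 39, 35 and 45, with Cy5 between 5.11 and 9.75. Its neighbor Gm_CUST_P10305474 (chr2:39726441-39726500) read 141, 37.8, 168 and 171. At both, plant 39 was the low plant, below 50 like “M92-220”, and the other 3 plants were together.

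Plant 15 had few such probes. Gm_CUST_P12128079 (chr13:34924414-34924473) read 540, 11.95, 8.35 and 8.03 in Cy3 in plants 15, 39, 35 and 45. Its Cy5 signal was 43.0 on the array of plant 15 and 5.89 to 11.8 on the others, so both dyes were highest on the same array. Gm_CUST_P12903930 (chr18:28551580-28551629) read 223, 30.4, 38.2 and 22.8, and Gm_CUST_P12512159 (chr15:50992880-50992939) read 159, 10.1, 7.99 and 7.31. In the P06 plants the highest signals at a probe below 50 in the other 3 plants were 72.4 in plant 35, at Gm_CUST_P12603915 on chromosome 16, and 84.4 in plant 45, at Gm_CUST_P10424171 on chromosome 3. The lowest Cy3 signal marked well above background was 35.7 on the array of plant 35 and 34.4 on that of plant 45.

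The log2 ratios of the P06 and P05 plants differed at few dim probes by the main test. How the share compared with that over all probes depended on the direction and the setting. The difference in log2 ratio between the lines was tested over all 951615 probes with limma's treat against a difference of 1. It called 735 probes (0.0772%), of which 733 were lower in P06 (0.077% of all probes) and 2 higher (0.00021%). Of the dim probes 4 of 6528 were called (0.0613%). The 2 lower in P06 were 0.0306% of the dim probes, a smaller share than over all probes. The 2 higher in P06 were the same share of the dim probes and were the only probes called higher in the whole design. At an unadjusted p under 0.05 the same test had 102 dim probes (1.56%), against 0.0949% of all probes.

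All 4 called probes were low, and none had a signal well above background in either dye on any array. Gm_CUST_P11045230 (chr7:6256261-6256320) had a difference of -2.59 between P06 and P05 on the log2 scale (SE 0.14, limma treat adjusted p = 0.0104). Its Cy3 signals were 16.2, 23.6, 9.43 and 8.94 in plants 15, 39, 35 and 45. Its Cy5 signals were 6.49, 7.39, 18.1 and 20.998. Gm_CUST_P10213536 (chr2:7261267-7261326) had a difference of -2.19 (SE 0.11, limma treat adjusted p = 0.0162). Gm_CUST_P11589071 (chr10:11835465-11835524) had one of 1.90 (SE 0.10, limma treat adjusted p = 0.0344). Gm_CUST_P12776846 (chr17:35180566-35180625) had one of 1.69 (SE 0.07, limma treat adjusted p = 0.0258). Its Cy3 signals in plants 15, 39, 35 and 45 overlapped between the lines, at 14.5, 20.9, 17.5 and 19.6. Its Cy5 signals were 13.1, 18.6, 5.08 and 5.30, so its difference came mostly from Cy5. At the other called probes both dyes differed, in opposite directions. The ratio holds the Cy5 of the wild-type line, so these calls are not of the plants alone. None of the 4 had a signal well above background in either dye, so no fold is given. With the Cy3 signal alone, or with both signals raised to at least 30, limma called 0 dim probes. At an unadjusted p under 0.05 the Cy3 signal alone had 52 (0.797%, against 0.0898% of all probes) and the raised signals 1 (0.0153%, against 0.083%). Leaving out 1 plant at a time gave between 32 dim probes without plant 45 (0.49%, against 0.0803% of all probes) and 80 without plant 15 (1.23%, against 0.201%).

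The dim probes were unevenly spread over the 20 chromosomes. Chromosome 3 had the highest share, 799 probes or 1.80% of its probes, followed by chromosome 15 with 834 (1.68%), chromosome 18 with 724 (1.35%), chromosome 16 with 449 (1.19%) and chromosome 20 with 431 (0.974%). These 5 chromosomes held 3237 dim probes, 49.6% of the set, on 24.1% of all probes. Every other chromosome was below the genome's 0.686%, from 0.624% on chromosome 7 down to 0.231%, or 110 probes, on chromosome 4. Chromosomes 11, 19 and 6 were also low, with 0.271%, 0.285% and 0.311%.

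The same chromosomes had most of the runs, in which 3 or more probes in a row were all dim. Between 31.6% and 39.9% of the dim probes of chromosomes 3, 15, 16, 18 and 20 were in runs, against 6.06% on chromosome 6 and 26.7% on chromosome 1, the lowest and highest of the other 15. The share that was dim in the mutants too ran from 85.5% on chromosome 6 (141 of 165) to 93.6% on chromosome 4 (103 of 110). Of the 5 chromosomes with most dim probes for their size, chromosome 20 had the lowest share, 87.0% (375 of 431), and chromosome 15 the highest, 93.5% (780 of 834).

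**Figure D3:**
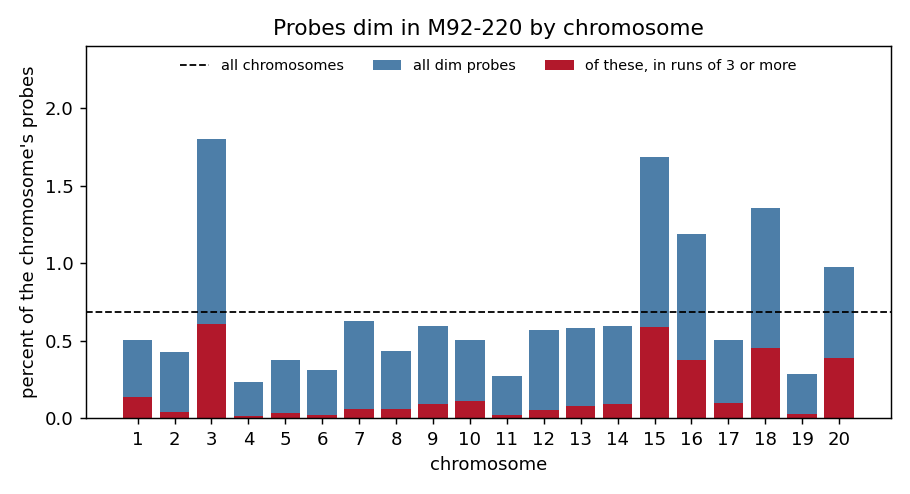
Dim probes as a percentage of the probes of each of the 20 chromosomes (blue), with those in runs of 3 or more overlaid in red and the share over all chromosomes, 0.686%, as a dashed line. Chromosomes 3, 15, 16, 18 and 20 stand above the line and the other 15 below it.

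Within chromosomes the probes were concentrated further. In windows of 1 Mb, 192 of 958 held no dim probe and the median window held 3 among a median of 911 probes. The 23 windows with 40 or more held 1515, or 23.2% of the set, on 8 chromosomes, with 8 of these windows on chromosome 3. On chromosome 3 the stretch from 1 to 9 Mb held 497 of 8259 probes (6.02%) and 62.2% of that chromosome's dim probes. On chromosome 15 the 2 Mb from 46 to 48 Mb held 220 of 1905 probes (11.5%). On chromosome 18 the stretch from 6 to 9 Mb held 186 of 3484 (5.34%), and on chromosome 16 that from 27 to 30 Mb held 172 of 3684 (4.67%), which was 38.3% of its dim probes. The window from 22 to 23 Mb of chromosome 20 had few probes, 218, and 53 of them were dim (24.3%).

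The share of dim probes had no steady order by probe density, while the share of them in runs was lower in denser windows. In windows with fewer than 300 probes, 1.17% of the probes were dim, in windows with 300 to 600 0.635%, in those with 600 to 1200 1.02%, and in those with more 0.545%. Of the dim probes in these 4 classes of windows, 54.9%, 36.7%, 34.7% and 12.2% were in runs. Probes 60 bp long made up 78.8% of the dim set and 68.9% of the other probes, so the dim probes were if anything the longer ones.

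Dim probes were often next to each other, but most stood alone. The probe directly beside a dim probe was dim in 25.7% of cases, against 0.686% over all probes, and the probe 10 places away in 11.7%. The median distance to the nearest other dim probe was 4.75 kb, with a median probe spacing of 474 bp. Within 5 kb of another were 50.6%, and 13.2% were more than 100 kb from any other. No dim probe was directly beside 4090 of them (62.7%), and 2438 (37.3%) had a dim neighbor.

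Neighbors that were not dim were nonetheless weaker than usual. Their median Cy5 signal was 775 and 794 at the probe on either side, between 956 and 958 at the 10th probe, and 1058 over all other probes. Their Cy3 signal in the mutants followed, with 821 and 827 at the nearest probe against 1049 over all other probes. Below 500 in Cy5 were 32.8% and 33.4% of the nearest neighbors, against 18.5% of all other probes. Among the dim probes that stood alone, 1977 (48.4%) had both neighbors at 500 or more, as did 66.6% of the other probes.

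**Figure D4:**
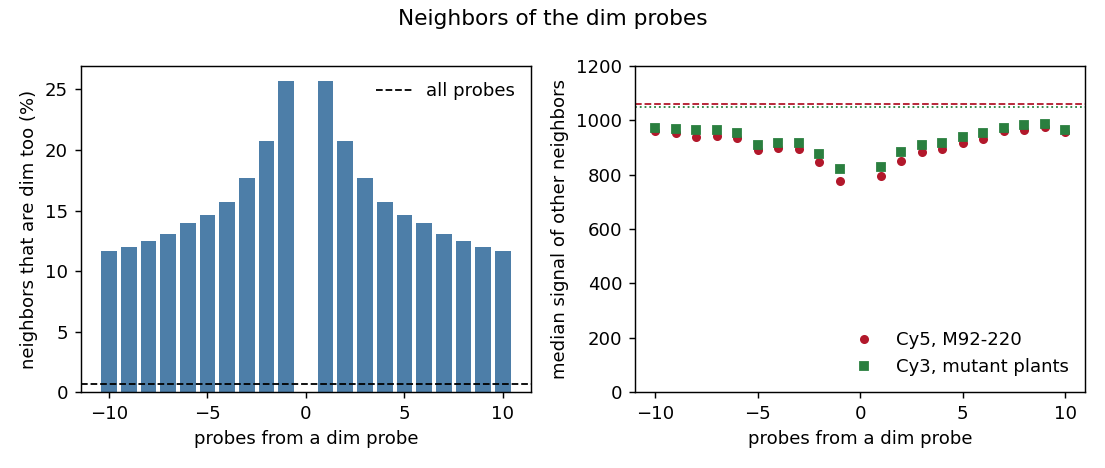
Left, the percentage of probes that are dim too at 1 to 10 places before and after a dim probe, with the share over all probes (0.686%) as a dashed line. Right, the median Cy5 (circles) and Cy3 (squares) signal of neighbors that are not dim, with the medians over all other probes as lines, which shows both dyes lowest at the nearest neighbor and closer to the lines at the 10th.

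Runs of 3 or more numbered 330 and held 1574 dim probes (24.1%). Their median span was 2.09 kb and their summed span 2039 kb. Most were short, with 139 runs of 3, 79 of 4 and 39 of 5, and the 19 runs of 10 or more held 267 probes. In 279 of the 330 every probe was also dim in all 4 plants. Of the probes in runs 96.4% were dim in the mutants too, and of those with no dim neighbor 88.6%. Probes in runs were also further below the threshold, with a median highest Cy5 signal of 10.7 against 14.2 and with 80.6% against 64.7% below 20.

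Runs are ranked here by their number of probes. By span some others were longer, such as 7 probes over 198 kb (chr20:22125498-22323789). The longest run by number had 26 dim probes over 128 kb of chromosome 18 (chr18:27416598-27544885), and all 26 were dim in every plant. In the order of plants 15, 39, 35 and 45, its median Cy5 signal was 6.29, 7.48, 6.46 and 6.31 and its median Cy3 signal 9.96, 11.03, 8.62 and 8.06. Probes were sparse there. The probe directly after this run read 8.59 in Cy5 and 11.1 in Cy3 as the median over arrays, but was not in the set. Directly beyond that probe lay a run of 9 dim probes (chr18:27545779-27584796). The next longest run had 25 probes over 20.5 kb of chromosome 15 (chr15:46912595-46933104), of which 24 were dim in all plants, with Cy5 medians of 5.83, 8.38, 6.54 and 6.30. The probe before it read 5961 in Cy5 and 5161 in Cy3 as the median over arrays, and the probe after it 185 and 191. The bright probe before it was also the one directly after a run of 11 dim probes (chr15:46901211-46907248), so it stood alone between 2 runs. The run of 22 at chr18:18253491-18269187 spanned 15.7 kb, with 21 dim in all plants.

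The last place among the 10 was shared by 5 runs of 11 probes, of which the one with the longest span was taken. Of the other 7 among the 10 longest, chromosome 15 had 2 more, with 17 probes (chr15:46869860-46881912) and 16 probes (chr15:46979222-46989356). Chromosome 3 had a run of 17 (chr3:6154110-6161556) and one of 13 (chr3:39662944-39671703). Chromosome 20 had a run of 14 over 53.6 kb (chr20:22821947-22875550) and one of 12 (chr20:24606263-24614648), and chromosome 9 had a run of 11 over 51.9 kb (chr9:14812425-14864276). In these 7 runs the median Cy3 signal was between 7.61 and 14.5 in every plant. The highest single Cy3 reading in any of the 10 runs was 78.0, so none held a probe that was bright in a mutant.

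Runs themselves were grouped. Joining runs less than 100 kb apart, a distance chosen after the values were seen, gave 181 places, 63 of them with more than 1 run. The largest joined 20 runs toward the end of chromosome 15 (chr15:46862426-47228301), where 190 of 303 probes were dim over 366 kb. Of these 190, 179 were dim in all 4 plants, and the highest Cy3 reading was 74.8. The 113 probes in between were mixed, 32 of them with a mean Cy5 signal of 1000 or more and 38 below 200, and their median log2 ratio was 0.00. In the 100 kb before this place 3 of 87 probes were dim and in the 100 kb after it 6 of 120, and the other probes there had median Cy5 signals of 1100 and 917.

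**Figure D5:**
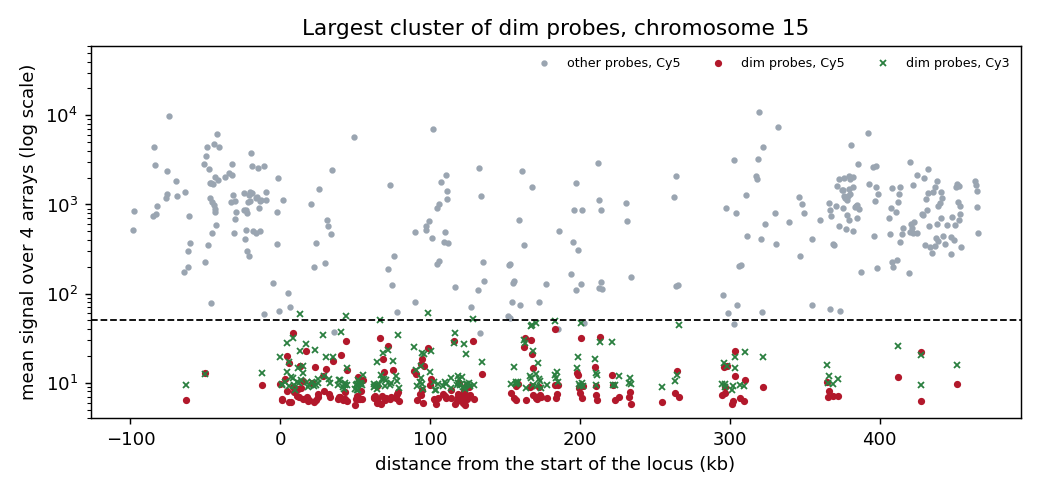
Mean signal over the 4 arrays (log axis) of each probe by distance from the start of the largest group of runs, on chromosome 15, with Cy5 of dim probes in red, Cy3 of the same probes as green crosses and Cy5 of all other probes in gray. The 190 dim probes lie below the dashed line at 50 in Cy5, with their Cy3 readings close to the same level, and bright probes stand between them.

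The next places were chr18:8129358-8337991, where 72 of 142 probes were dim in 11 runs, chr3:25981399-26154930, with 60 of 107 in 9 runs, and chr18:27275626-27594275, with 55 of 66 in 6 runs. The other probes inside these 3 had median Cy5 signals of 434, 347 and 411 and Cy3 signals of 425, 347 and 425, with median log2 ratios between -0.03 and 0.04. At all 4 places the probes between the dim ones thus had medians below the 1058 and 1049 of other probes, in “M92-220” and in the mutants alike.

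When the dyes traded places in the rule, 145 probes were dim in all 4 mutant plants without being in the set. Without the array of plant 39 this count was 513. Of the 145, 22 had a log2 ratio of -1 or less in every plant, 11 on chromosome 16, 8 on chromosome 18, 2 on chromosome 6 and 1 on chromosome 10.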

How the data were processed

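Leaf DNA of 4 plants (500 ng per labeling) was measured by aCGH. The authors deposited the intensity of each spot in both dyes from Agilent Feature Extraction 12.0.0.7 per the file headers, background-subtracted, detrended and linearly dye-normalized, with a surrogate in place of signals that were not significant. They also deposited a log2 ratio table, which equaled the log2 of Cy3 over Cy5 up to a constant per array (within 0.01 at 99.99% or more of shared probes) and served as an alternative. Deposited flags of the scanner software (other values, 0 or 1) gave the spots well above background.

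Control spots were left out and spots of a probe averaged. Log2 ratios were centered on each array's median. The members, lists and places were chosen with earlier results of these data known. Named are the 10 runs with most probes, the called probes, and up to 3 probes per plant bright in that plant alone. Also named are the 5 dim probes with the highest lowest Cy3 and the 3 with the lowest mean Cy3. At the threshold, 3 probes on each side are named. Lines were compared with limma 3.58.1 in R 4.3.3 (lmFit, treat, Benjamini-Hochberg, adjusted p under 0.05), tested on simulated data first. Counts used Python 3.11.15. An “at least” fold takes a signal not well above background at the lowest signal well above it on that array, or its own if higher. Such folds over more than 1 array are geometric means over the arrays. The 18 dim probes listed on Chr014 were taken as chromosome 14. With 4 arrays, their number limits the precision. Each slide held 1 array, so slide and plant cannot be told apart. Probe sequences were not used here.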

Additional observations from a re-analysis of the deposited data

Results flagged for a closer look

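The array of plant 39 stood apart from the other 3 in the number of probes below 50 in Cy5, with 10944 against 7310, 7745 and 7616. Its gap to the nearest array was 0.880 of the range, above Dixon's critical value at the 95% level for 4 arrays, which chance exceeds in about 1 of 20 groups. That array also had most spots with an outlier flag, 861 against 210 to 244. In Cy3 it had the most probes below 50 as well, 10286 against 7334, 7925 and 7836 on the others. The highest Cy5 signal of 12 of the 20 dim probes bright in plant 39 alone was on that array. The same count over all dim probes was not made, and the part of the array in that pattern was not tested. The median Cy5 signal over the dim probes on that array, 9.02, was the highest but did not stand apart by the same measure (0.761).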

How the results depend on the processing

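Of 66 recomputed values for 6 counts, 49 were within 1.5 times the reported count and 17 were beyond it. A threshold of 30 gave 47 dim probes brighter in all plants in place of 25, and one of 100 gave 9907 dim probes in place of 6528. With the local background subtracted from the median pixel signal, 39 were brighter and 289 were dim in the mutants but not in the set, in place of 145. With the software's background flag in place of the threshold the last count was 504. A log2 ratio of 2 or more left 13 brighter probes. Runs of 2 or more held 2438 probes and runs of 5 or more 841, in place of 1574. Leaving out each array in turn gave 6622 to 6727 dim probes, with 6035 to 6150 dim in the mutants too. It gave 28 to 34 brighter probes and 1576 to 1624 in runs. All of these counts could only stay the same or rise, since 1 condition fewer applied. Between 147 and 513 probes were dim in all remaining mutant plants without being in the set, with the 513 without plant 39. The 4 probes called between P06 and P05 became 68 (1.04%, against 0.0917% of all probes) with eBayes and a difference beyond 1, 0 with Cy3 alone, 0 with signals of at least 30 and 0 with normexp, where limma had 52, 1 and 0 at an unadjusted p under 0.05. Without plants 15, 39, 35 and 45 in turn they became 80, 55, 35 and 32, with the lone plant assumed to vary like the other line. The cause was not tested. No paired analysis was possible because no plant number occurs in both lines.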
